A study of Mus musculus with 3 samples.

Results

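Interferon-response genes and interferon regulatory factors were followed across 3 sorted mouse cell populations. The group holds 49 genes, taken by symbol: the receptors for interferons, the transcription factors that act below them, and genes that interferons induce. All 49 had a row in each gene table, out of 23234 genes listed. Nasal double-positive cells (DP) were sorted as CD45+Ly6G+SiglecF+ from the nose 2 days after LPS (lipopolysaccharide, a component of bacterial outer membranes). Nasal neutrophils were the CD45+Ly6G+SiglecF- cells of the nose at 1 day, and blood neutrophils were cells of that same gate in peripheral blood, also at 1 day. All mice were wild-type C57BL/6J of 6-15 weeks, and all had received 10 µg of LPS in 10 µL through the nostrils; no mice without LPS were analysed here. Each group is 1 library, so the differences carry no replicate check and were not tested. Gate and day differ together between DP and nasal neutrophils, and gate, day and tissue differ together between DP and blood neutrophils, so they cannot be told apart there.

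Type I interferons (the IFN-alpha family and IFN-beta) act through the receptor chains Ifnar1 and Ifnar2, and IFN-gamma acts through Ifngr1 and Ifngr2. The type I receptor activates a complex that includes Stat2 and Irf9 and binds the interferon-stimulated response element (ISRE), whereas IFN-gamma mainly acts through the gamma-activated site (GAS). The induced genes encode antiviral proteins, nucleic acid sensors and large GTPases, and some of them, such as Usp18, damp the pathway. LPS can induce IFN-beta through Tlr4 and Irf3, and neutrophils are known to carry both kinds of receptor.

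Levels are given in FPKM, which scales fragments to transcript length and to the size of the library, so different genes may be compared. From the spacing of low values, the libraries held roughly 54700000 fragments in DP cells, 12800000 in nasal and 53600000 in blood neutrophils. At equal FPKM, nasal neutrophil values of a gene thus rest on the fewest fragments. The gene for SiglecF appears in the tables as Siglec5; it stood at 167.8 FPKM in DP cells, 9.92 in nasal and 18.7 in blood neutrophils, and Ptprc, which encodes CD45, at 445.1 FPKM in DP cells, 136.7 in nasal and 718.8 in blood neutrophils. Ly6g had no row of that name and was not analysed here. Of 15 neutrophil markers, all were at 1 FPKM or more in DP and in nasal neutrophils and 14 were in blood neutrophils, where S100a8 was listed at 0; an exact 0 in these tables can be a failed estimate. Both nasal libraries also held markers of nasal tissue: 19 epithelial and olfactory markers summed to 4392.8 FPKM in DP cells, 2845.5 in nasal and 1.87 in blood neutrophils. The blood library held red cell and platelet markers. The 11 of that list, led by Hba-a1 and Hba-a2, summed to 26.7 FPKM in DP cells, 30.8 in nasal and 5535.35 in blood neutrophils. The part of the nasal tissue, red cell and platelet markers in the values of interferon-response genes was not tested.

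The interferon-response genes as a group were lower in DP than in nasal neutrophils and spread to both sides in the comparison with blood neutrophils. Their summed level was 2795.5 FPKM in DP cells, 5071.9 in nasal and 3697.6 in blood neutrophils. This is 0.438% of all FPKM in DP, 0.818% in nasal and 0.558% in blood neutrophils. A gene was compared where its mean over the 3 libraries reached 1 FPKM, which 45 of the 49 did; Irf4, Mx2, Trim21 and Ifi44 did not. Among the 45, DP held the lowest of the 3 values for 24 (53.3%), against 15% of the 10719 genes that passed the same filter. Nasal neutrophils held the highest value for 31 (68.9%), against 22.3% of all genes tested, and DP for 5 (11.1%), against 58.7%. Blood neutrophils held the lowest value for 16 (35.6%), against 55.4% of all genes tested. In bulk RNA, fewer cells of a type and less RNA per cell cannot be told apart.

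**Figure D1:**
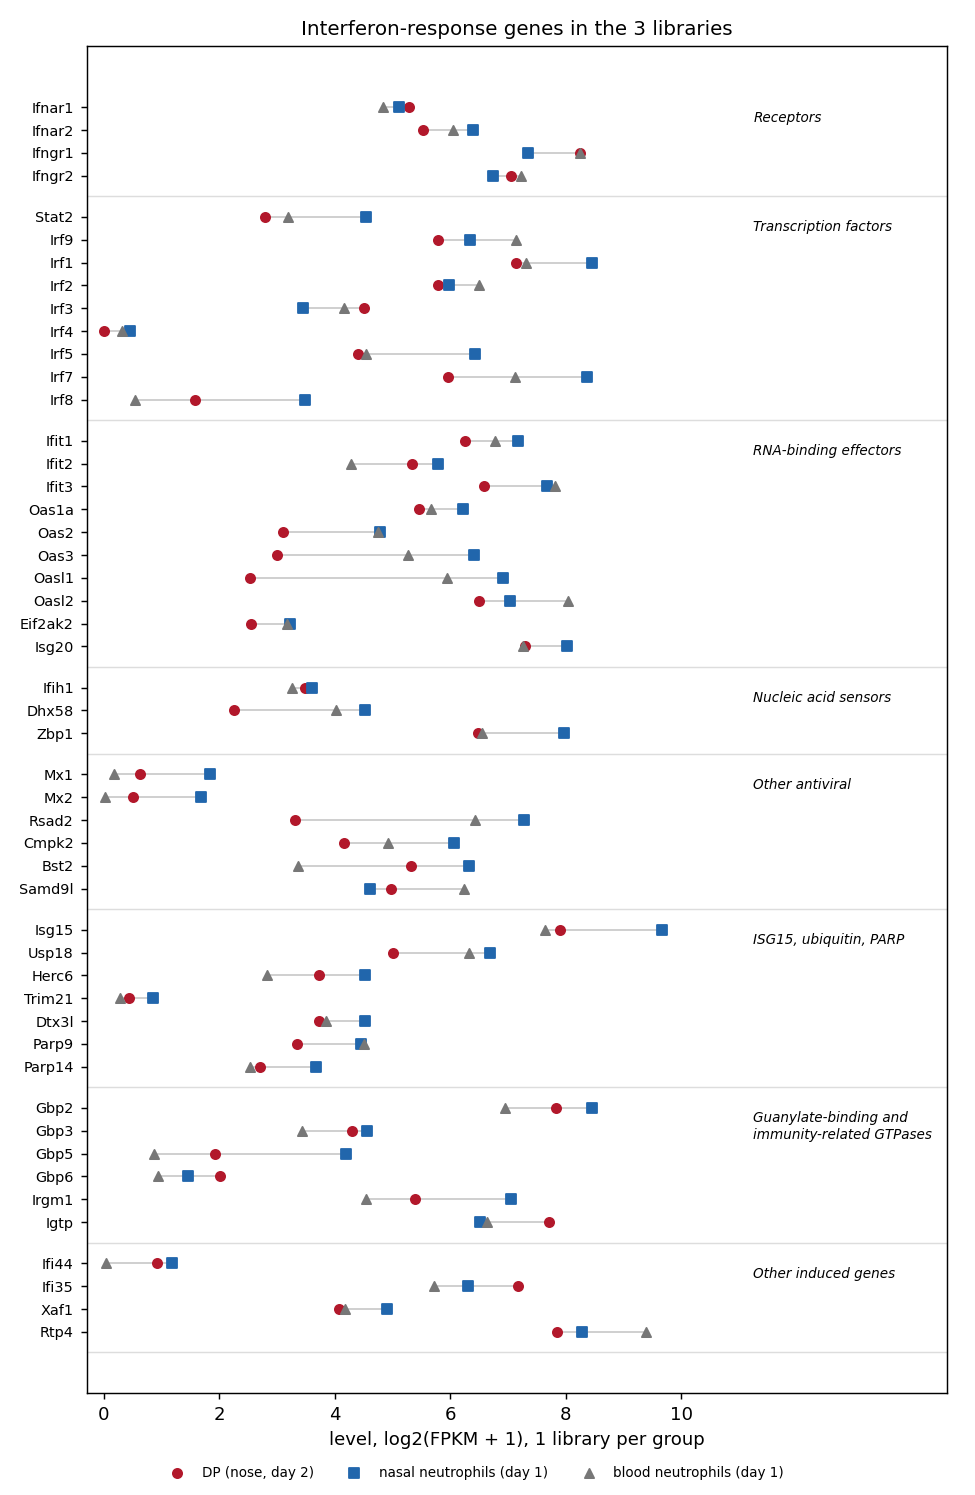
Levels of the 49 genes, as log2(FPKM + 1) on the horizontal axis, with 1 point per library (DP circles, nasal neutrophils squares, blood neutrophils triangles) and genes grouped by role. Oasl1, Oas3 and Rsad2 have their DP circle far left of both neutrophil points, while the 4 receptor genes lie close together.

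The comparison of DP with nasal neutrophils sets SiglecF-positive beside SiglecF-negative cells of the nose. Of the 45 genes, 0 in DP lay 4-fold or more above their level in nasal neutrophils and 7 lay 4-fold or more below it on the log2(FPKM + 1) scale, where 8.42% of all genes tested were higher and 3.62% lower by that measure. Most neutrophil markers were lower in DP too: the 15 summed to 17058.3 FPKM in DP cells and 61950.0 in nasal neutrophils. Of these markers 7 were 4-fold or more below, and the median log2 ratio was -1.96. In sign, 13 were lower in DP and 2, Fcgr3 and Il1r2, higher. Their part in the interferon-response values was not tested. At 2-fold, 2 of the 45 were higher and 19 lower, against 33.6% and 11.3% of all genes tested. The median log2 ratio was -0.87 over the 45 genes and 0.57 over all genes tested. The 7 genes were Oasl1, Rsad2, Oas3, Irf7, Dhx58, Gbp5 and Irf5. Only Oasl1, Rsad2, Oas3 and Irf7 stayed beyond 4-fold in all 10 ways of computing the ratio that were run. With ratios centred on the median of all genes, 15 of the group were at least 4-fold lower and 0 higher, and 7.21% of all genes were lower and 3.36% higher.

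For nasal against blood neutrophils, which share gate and day, 5 of the 45 genes lay 4-fold or more above blood in the nose and 0 lay that far below. Among all genes tested 13.1% were higher and 3.23% lower, or 9.03% and 5.68% once centred. At 2-fold, 18 were higher and 3 lower, against 33.5% and 12.8% of all genes tested. The median log2 ratio was 0.67 over the 45 genes and 0.41 over all genes tested. The 5 genes were Gbp5, Bst2, Irf8, Irgm1 and Isg15, of which Bst2 and Irgm1 stayed beyond 4-fold in all 10 ways of computing the ratio. Macrophage and monocyte markers had higher sums in the nasal library: 12 macrophage markers summed to 1032.5 FPKM in nasal and 550.6 in blood neutrophils, with Apoe and Cd68 the most abundant. Single markers went either way: Apoe had 468.8 FPKM in nasal neutrophils and 150.1 in those of blood, but Cd68 had 181.1 in nasal neutrophils and 235.3 in those of blood, and Emr1 was also lower in the nose. The sum of 13 monocyte and dendritic cell markers, led by Cd74 and Nr4a1, was 3064.0 FPKM in nasal and 524.9 in blood neutrophils. Nr4a1 alone gave 1138.2 FPKM of the nasal sum and 12.4 of the blood sum, so 1 gene weighed heavily in this gap. Of the 10 that passed the filter, 9 were higher and 1, Xcr1, lower in nasal than in blood neutrophils. Among the macrophage markers, C1qa, C1qb, C1qc, Mrc1, Mertk and Marco were listed at 0 in blood neutrophils, and C1qb stood at 80.9 FPKM in nasal neutrophils. Their part in the interferon-response values was not tested.

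For DP against blood neutrophils, 0 of the 45 genes lay 4-fold or more above and 3 lay 4-fold or more below in DP, where 24% of all genes tested were higher and 3.57% lower. These 3 were Oasl1, Rsad2 and Oas3. The median was -0.14 over the 45 genes against 0.95 over all genes tested, and with centred ratios 13 were at least 4-fold lower, beside 9.06% lower and 10.4% higher of all genes. At 2-fold, 7 were higher and 13 lower, against 48.6% and 9.49% of all genes tested. The comparisons share libraries, so they are set side by side as values and not as separate evidence. The neutrophil markers summed to 17058.3 FPKM in DP cells and 83002.3 in blood neutrophils. Of the 15, 6 were at least 4-fold lower and 2, S100a8 and Il1r2, at least 4-fold higher, with a median log2 ratio of -1.07. S100a8 gave 7656.4 FPKM of the DP sum but was listed at 0 in blood neutrophils, which can be a failed estimate. The part of the neutrophil markers was not tested. In DP the macrophage markers summed to 739.8 FPKM, with Marco at 0. The monocyte and dendritic cell markers summed to 2167.3 FPKM, of which Nr4a1 alone gave 968.6, with Clec9a at 0. Both sums lay between those of the neutrophil libraries. Of the 10 monocyte and dendritic cell markers that passed the filter, 8 were higher and 2 lower in DP than in blood neutrophils. Those lower included Ly6c2, at 10.4 FPKM in DP cells and 168.1 in blood neutrophils. The part of these markers was not tested.

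**Figure D2:**
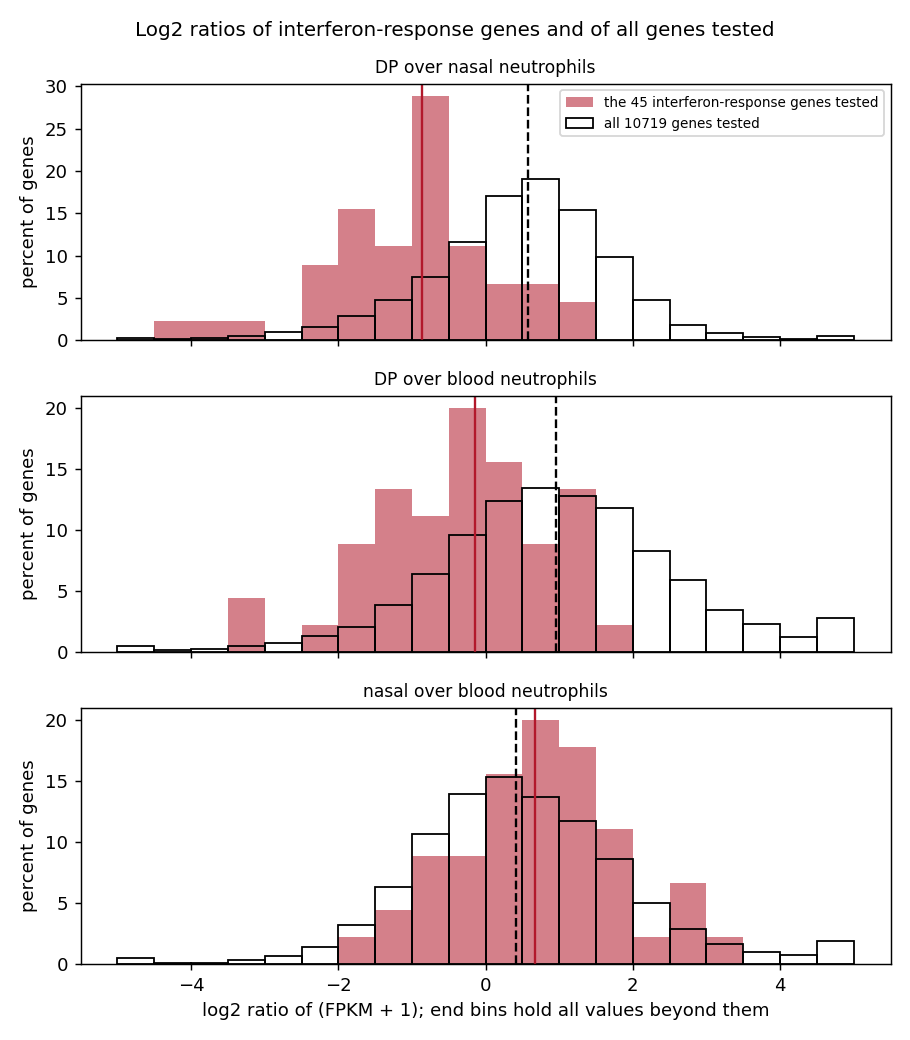
Distribution of log2 ratios in each comparison, as percent of genes per bin, for the 45 interferon-response genes (filled) and all 10719 genes tested (outlined); the solid line marks the median of the 45 genes and the dashed line that of all genes. The filled bars lie left of the outlined ones for DP over nasal neutrophils (medians -0.87 and 0.57) and DP over blood neutrophils (-0.14 and 0.95), and slightly right for nasal over blood neutrophils (0.67 and 0.41).

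Promoter sequences are shown for 7 of the genes because the complex activated by type I interferon acts at promoter elements. Windows from 250 bases before to 50 after the transcript start came from RefSeq on build GRCm38.p6, which matched 39 of the 49 genes with 46 windows. The ISRE core was searched on both strands as GAAA, any 2 bases and GAAA again, and GAS as TTCNNNGAA, which reads the same on both strands. The first 5 sequences are the genes with an ISRE core and the lowest DP ratios over nasal neutrophils where the mean reached 5 FPKM, and Irf3 and Ifngr1 are the genes without one that had the highest. Each is written 5′ to 3′ on the strand of the gene, with ISRE core matches in capitals. The windows lie, for Rsad2 at chr12:26456403-26456702 (minus strand), for Oas3 at chr5:120777610-120777909 (minus strand) and for Gbp5 at chr3:142496684-142496983 (plus strand). They lie for Isg15 at chr4:156200769-156201068 (minus strand), Stat2 at chr10:128270248-128270547 (plus strand), Irf3 at chr7:44997398-44997697 (plus strand) and Ifngr1 at chr10:19591699-19591998 (plus strand).
Rsad2: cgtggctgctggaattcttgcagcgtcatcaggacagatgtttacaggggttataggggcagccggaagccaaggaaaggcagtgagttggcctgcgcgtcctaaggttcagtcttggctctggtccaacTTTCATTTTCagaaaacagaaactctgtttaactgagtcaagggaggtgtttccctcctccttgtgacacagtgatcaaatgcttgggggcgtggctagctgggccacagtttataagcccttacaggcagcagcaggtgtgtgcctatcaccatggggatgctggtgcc
Oas3: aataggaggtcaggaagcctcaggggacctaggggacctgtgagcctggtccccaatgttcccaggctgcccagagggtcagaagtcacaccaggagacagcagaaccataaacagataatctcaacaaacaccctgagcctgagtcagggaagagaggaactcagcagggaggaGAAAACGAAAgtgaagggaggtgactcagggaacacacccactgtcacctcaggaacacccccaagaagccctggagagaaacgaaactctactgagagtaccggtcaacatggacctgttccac
Gbp5: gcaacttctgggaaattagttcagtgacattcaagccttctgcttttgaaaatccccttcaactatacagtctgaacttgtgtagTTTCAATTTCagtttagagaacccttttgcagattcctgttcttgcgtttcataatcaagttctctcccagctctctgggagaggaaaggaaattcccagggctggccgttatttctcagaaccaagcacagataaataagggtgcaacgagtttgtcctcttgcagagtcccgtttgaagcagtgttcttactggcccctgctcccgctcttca
Isg15: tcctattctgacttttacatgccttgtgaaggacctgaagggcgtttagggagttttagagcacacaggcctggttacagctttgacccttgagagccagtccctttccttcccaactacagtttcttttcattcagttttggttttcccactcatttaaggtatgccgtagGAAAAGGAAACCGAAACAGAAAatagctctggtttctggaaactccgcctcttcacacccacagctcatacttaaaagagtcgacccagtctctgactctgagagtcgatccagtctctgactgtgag
Stat2: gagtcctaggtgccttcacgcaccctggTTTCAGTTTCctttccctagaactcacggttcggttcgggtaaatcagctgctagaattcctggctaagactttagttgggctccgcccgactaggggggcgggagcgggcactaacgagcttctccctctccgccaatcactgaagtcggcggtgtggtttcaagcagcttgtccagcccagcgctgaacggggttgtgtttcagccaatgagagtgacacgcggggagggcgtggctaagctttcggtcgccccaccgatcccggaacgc
Irf3: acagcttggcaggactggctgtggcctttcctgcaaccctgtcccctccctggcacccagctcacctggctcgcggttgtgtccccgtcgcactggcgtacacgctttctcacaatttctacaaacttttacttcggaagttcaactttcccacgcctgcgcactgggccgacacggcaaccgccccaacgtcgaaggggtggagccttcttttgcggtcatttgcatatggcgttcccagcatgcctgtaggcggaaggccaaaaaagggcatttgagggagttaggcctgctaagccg
Ifngr1: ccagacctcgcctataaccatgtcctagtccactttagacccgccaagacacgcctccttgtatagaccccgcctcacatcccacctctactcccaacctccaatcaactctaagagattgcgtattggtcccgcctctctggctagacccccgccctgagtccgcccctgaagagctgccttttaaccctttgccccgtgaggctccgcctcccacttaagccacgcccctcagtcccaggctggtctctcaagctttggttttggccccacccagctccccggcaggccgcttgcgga

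Rsad2, Oas3, Gbp5 and Stat2 held 1 ISRE core each in these windows, and Isg15 held 3 that overlap one another in a single run of capitals. Gbp5 also held 2 GAS matches, neither overlapping its ISRE core. Over the group, 17 of the 46 windows (37%) held the ISRE core, against 3.44% of 32851 windows in the table. GAS matches were in 13 of 46 (28.3%), against 8.3% of all windows. The median log2 ratio of DP over nasal neutrophils was -0.95 for the 16 genes tested that had an ISRE core and -0.76 for the 20 without, and the 6 genes beyond 4-fold that had a window were 3 with and 3 without. Oasl1, with the lowest ratio of all 45, had neither motif in its window, and Igtp, with the highest, had both. A match is a description of the sequence, and the absence of these letters from a window says only that they are not in it.

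**Figure D3:**
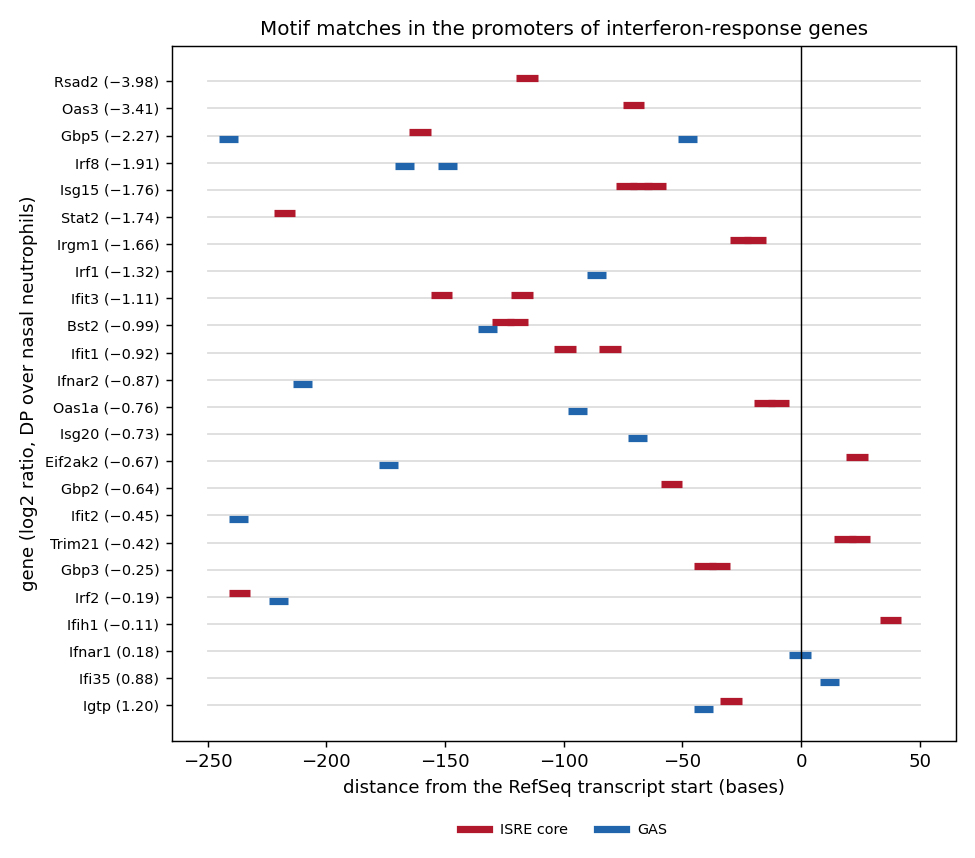
Positions of ISRE core and GAS matches in the promoter windows of the 24 genes with either, by distance in bases from the RefSeq transcript start, with all windows of a gene drawn on 1 line. Genes run from the lowest (Rsad2, -3.98) to the highest (Igtp, 1.20) log2 ratio of DP over nasal neutrophils, and ISRE cores occur along the whole order.

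Each receptor gene lay within 2-fold in all 3 comparisons. Ifnar1 stood at 38.0 FPKM in DP cells, 33.4 in nasal and 27.5 in blood neutrophils, and its partner Ifnar2 at 44.9 FPKM in DP cells, 83.1 in nasal and 65.5 in blood neutrophils. Ifngr1, the ligand-binding chain for IFN-gamma, stood at 301.4 FPKM in DP cells, 162.1 in nasal and 302.3 in blood neutrophils. Ifngr2, the signalling partner, stood at 131.7 FPKM in DP cells, 106.1 in nasal and 149.1 in blood neutrophils. The IFN-gamma receptor genes were thus the more abundant pair in every library. Nasal neutrophils held the lowest Ifngr1, with DP 1.86-fold above them. Small ratios changed sign with the scaling: Ifnar1 in every comparison, Ifngr2 for DP over nasal, Ifngr1 for DP over blood and Ifnar2 for nasal over blood neutrophils.

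The ligands themselves were near absent from these libraries. Of 19 interferon genes with a row, 9 were listed at 0 in all 3 libraries and none reached 1 FPKM in any. Ifng was highest at 0.52 FPKM in DP and was listed at 0 in both neutrophil libraries. Ifnb1 was at 0.25 FPKM in nasal neutrophils and listed at 0 in DP and in blood neutrophils.

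Stat2 and Irf9, which act in the complex activated by type I interferon, differed in their order across the libraries. Stat2 stood at 5.96 FPKM in DP cells, 22.3 in nasal and 8.12 in blood neutrophils. Irf9, the DNA-binding subunit, stood at 54.1 FPKM in DP cells, 79.8 in nasal and 139.6 in blood neutrophils. Both were lowest in DP, while Stat2 was highest in nasal and Irf9 in blood neutrophils. Of the receptor-bound kinases, Jak1 stood at 78.0 FPKM in DP cells, 86.6 in nasal and 111.4 in blood neutrophils. Tyk2 stood at 1.47 FPKM in DP cells, 6.11 in nasal and 1.21 in blood neutrophils, and Jak2, which serves the IFN-gamma receptor, at 32.2 FPKM in DP cells, 11.1 in nasal and 4.80 in blood neutrophils.

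Among the interferon regulatory factors, Irf1 and Irf7 were the most abundant in DP and in nasal neutrophils, and Irf1, Irf9 and Irf7 in blood neutrophils. Irf7, which drives IFN-alpha genes and is itself interferon-induced, stood at 61.2 FPKM in DP cells, 329.8 in nasal and 138.5 in blood neutrophils, a log2 ratio of -2.41 for DP over nasal neutrophils. Irf1, induced by IFN-gamma and by NF-kappaB, stood at 139.9 FPKM in DP cells, 350.6 in nasal and 157.2 in blood neutrophils. Irf5, which acts below Toll-like receptors, stood at 20.1 FPKM in DP cells, 84.9 in nasal and 22.2 in blood neutrophils. All 3 had their peak in nasal neutrophils, and for Irf1 and Irf5 the levels in DP and blood neutrophils were close. Irf3, the constitutive factor that first induces Ifnb1, had its lowest value there instead, with 21.7 FPKM in DP cells, 9.91 in nasal and 16.9 in blood neutrophils. Irf2, which binds the same sites as Irf1 and often opposes it, stood at 54.4 FPKM in DP cells, 62.3 in nasal and 89.8 in blood neutrophils. Irf8, a factor of monocytes, dendritic cells and B cells, stood at 1.99 FPKM in DP cells, 10.2 in nasal and 0.45 in blood neutrophils. Irf4, a factor of lymphocytes and dendritic cells, was listed at 0 in DP and at 0.36 FPKM in nasal neutrophils and 0.25 in those of blood.

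Beside Irf8 and Irf4, markers of B cells, monocytes and dendritic cells are given because these factors are known there. The 8 B and plasma cell markers with a row summed to 7.18 FPKM in DP cells, 49.1 in nasal and 69.7 in blood neutrophils. Cd79a and Cd79b led this list, and Pax5 and Blk were listed at 0 in DP. The monocyte and dendritic cell markers summed to 2167.3 FPKM in DP cells, 3064.0 in nasal and 524.9 in blood neutrophils. Cd74 and Nr4a1 led that list by their mean over the libraries. Of these sums, Nr4a1 alone gave 968.6 FPKM in DP cells, 1138.2 in nasal and 12.4 in blood neutrophils. The part of either list in the Irf8 and Irf4 values was not tested.

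The RNA-binding effectors included the genes with the widest gaps. The 2′-5′ oligoadenylate synthetases make an activator of RNase L when they bind double-stranded RNA, while the related Oasl1 lacks that activity and is known in mice to restrain translation of Irf7. Oasl1 stood at 4.77 FPKM in DP cells, 119.0 in nasal and 60.7 in blood neutrophils. DP was thus 25.0-fold lower than nasal neutrophils and 12.7-fold lower than blood neutrophils, and 34 of the 10719 genes tested had a lower log2 ratio of DP over nasal neutrophils. Oasl2, its neighbour in the genome, stood at 89.1 FPKM in DP cells, 129.3 in nasal and 260.4 in blood neutrophils, so DP was 1.45-fold lower than nasal and 2.92-fold lower than blood neutrophils. Adjacent and related genes thus differed widely in this respect. Oas3 stood at 7.01 FPKM in DP cells, 84.3 in nasal and 37.3 in blood neutrophils, and its neighbour Oas2 at 7.55 FPKM in DP cells, 26.6 in nasal and 25.9 in blood neutrophils. Both were lowest in DP, Oas3 by 12.0-fold and Oas2 by 3.53-fold against nasal neutrophils. Oas1a was flatter, at 42.9 FPKM in DP cells, 73.2 in nasal and 49.8 in blood neutrophils.

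The Ifit genes, whose products bind viral RNA lacking host cap marks, spanned a narrower range. Ifit1 stood at 75.6 FPKM in DP cells, 143.7 in nasal and 108.1 in blood neutrophils. Ifit3 stood at 94.4 FPKM in DP cells, 204.3 in nasal and 225.0 in blood neutrophils, and its neighbour Ifit2 at 39.4 FPKM in DP cells, 54.2 in nasal and 18.3 in blood neutrophils. DP was the lowest library for Ifit1 and Ifit3, but blood neutrophils were for Ifit2. Eif2ak2, the kinase PKR that halts translation on double-stranded RNA, stood at 4.85 FPKM in DP cells, 8.34 in nasal and 8.0 in blood neutrophils. Isg20, an exonuclease, stood at 155.7 FPKM in DP cells, 258.1 in nasal and 153.1 in blood neutrophils. All 10 genes of this role had negative log2 ratios of DP over nasal neutrophils, with a median of -0.84 and a range from -4.38 to -0.45. Close copies exist for Ifit3, Oas1a, Mx1 and the Gbp genes, and whether reads were split among them was not tested.

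Of the cytoplasmic sensors, Dhx58 and Ifih1 parted ways although their products, LGP2 and MDA5, belong to the same family. Dhx58 stood at 3.77 FPKM in DP cells, 22.1 in nasal and 15.2 in blood neutrophils. Ifih1 stood at 10.2 FPKM in DP cells, 11.2 in nasal and 8.56 in blood neutrophils, with small ratios whose sign turned on centring for both nasal over blood and DP over blood neutrophils, and on correction for transcript length for DP over nasal neutrophils. Zbp1, a sensor of Z-form nucleic acid that can trigger necroptosis, was far more abundant, at 88.5 FPKM in DP cells, 249.3 in nasal and 92.2 in blood neutrophils.

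Rsad2 and Cmpk2 are neighbours whose products act together: viperin, made from Rsad2, turns CTP into a chain terminator of viral RNA, and Cmpk2 supplies nucleotide. Rsad2 stood at 8.89 FPKM in DP cells, 154.7 in nasal and 84.8 in blood neutrophils. Cmpk2 stood at 16.9 FPKM in DP cells, 65.9 in nasal and 29.4 in blood neutrophils. Both were lowest in DP and highest in nasal neutrophils, but DP was 17.4-fold lower than nasal neutrophils for Rsad2 and 3.90-fold lower for Cmpk2. Bst2, which encodes the virus-retaining membrane protein tetherin, stood at 39.2 FPKM in DP cells, 78.8 in nasal and 9.27 in blood neutrophils, which is 8.50-fold higher in nasal than in blood neutrophils. Bst2 is also a marker of plasmacytoid dendritic cells. The 9 such markers with a row, Bst2 among them, summed to 51.8 FPKM in DP cells, 101.3 in nasal and 11 in blood neutrophils. Bst2 itself made up most of each sum. Siglech stood at only 0.57 FPKM in DP cells, 0.52 in nasal and 0.26 in blood neutrophils. Of the 5 that passed the filter, 4 were lower and 1, Tcf4, higher in DP than in nasal neutrophils. Of the 9, 5 reached 1 FPKM in DP cells, 5 did in nasal neutrophils and 1 did in blood neutrophils, where Klk1, Cd209d and Pacsin1 were at 0. Klk1, the next most abundant, stood at 4.09 FPKM in DP cells and 13.5 in nasal neutrophils, and the list's part in the Bst2 values was not tested. Samd9l, which restrains translation and growth, stood at 30.4 FPKM in DP cells, 23.4 in nasal and 74.9 in blood neutrophils, highest in blood neutrophils. The Mx genes encode dynamin-like antiviral GTPases, and Mx1 is known to be defective in most inbred mouse strains. Mx1 stood at 0.54 FPKM in DP cells, 2.56 in nasal and 0.13 in blood neutrophils, and Mx2 at 0.42 FPKM in DP cells, 2.21 in nasal and 0.01 in blood neutrophils. The Mx2 value in blood rests on about 1 fragment, so no fold is given against it.

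Isg15 encodes a ubiquitin-like modifier, and it was the most abundant of the 49 genes in nasal neutrophils. It stood at 238.8 FPKM in DP cells, 812.4 in nasal and 198.0 in blood neutrophils. Usp18, which removes Isg15 from proteins and blocks signalling at Ifnar2, stood at 31.0 FPKM in DP cells, 102.6 in nasal and 78.8 in blood neutrophils. DP was 3.40-fold lower than nasal neutrophils for Isg15 and 3.31-fold lower for Usp18. In blood neutrophils, by contrast, Isg15 was close to DP while Usp18 was 2.54-fold above it. Herc6, the mouse ligase that attaches Isg15, stood at 12.2 FPKM in DP cells, 21.9 in nasal and 6.12 in blood neutrophils. Dtx3l and Parp9 are neighbours whose products form a ubiquitin ligase complex. Dtx3l stood at 12.2 FPKM in DP cells, 21.9 in nasal and 13.4 in blood neutrophils, Parp9 at 9.10 FPKM in DP cells, 20.9 in nasal and 21.7 in blood neutrophils, and Parp14, the next gene and an ADP-ribosyltransferase, at 5.48 FPKM in DP cells, 11.7 in nasal and 4.79 in blood neutrophils. DP was 1.79-fold to 2.30-fold lower than nasal neutrophils for these 3 genes. Trim21, a cytosolic antibody receptor, was at 0.35 FPKM in DP cells, 0.80 in nasal and 0.21 in blood neutrophils.

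Guanylate-binding proteins and immunity-related GTPases attack the vacuoles of intracellular pathogens and are chiefly induced by IFN-gamma. Igtp, also called Irgm3, stood at 208.4 FPKM in DP cells, 90.1 in nasal and 98.9 in blood neutrophils, so DP was 2.31-fold above nasal neutrophils. Irgm1, which regulates the other family members, was instead highest in nasal neutrophils, at 40.8 FPKM in DP cells, 131.0 in nasal and 22.2 in blood neutrophils. Gbp2 stood at 225.9 FPKM in DP cells, 351.6 in nasal and 122.1 in blood neutrophils and Gbp3 at 18.7 FPKM in DP cells, 22.4 in nasal and 9.73 in blood neutrophils. Gbp5, which promotes inflammasome assembly, stood at 2.80 FPKM in DP cells, 17.3 in nasal and 0.83 in blood neutrophils. Gbp6 was low, at 3.03 FPKM in DP cells, 1.74 in nasal and 0.91 in blood neutrophils. All 6 were lowest in blood neutrophils except Igtp, which was lowest in nasal neutrophils, but for Gbp2, Gbp3 and Irgm1 the sign of DP over blood neutrophils turned once ratios were centred. The median log2 ratio of DP over blood neutrophils was 0.97 for these 6, near the 0.95 of all genes tested.

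The remaining induced genes divided between the libraries. Rtp4, which encodes a transporter protein that restrains interferon responses in mice, stood at 230.7 FPKM in DP cells, 311.4 in nasal and 673.1 in blood neutrophils, where it was the most abundant of the 49. Ifi35, a leucine zipper protein, was highest in DP, at 144.1 FPKM in DP cells, 78.0 in nasal and 51.4 in blood neutrophils. Xaf1, a pro-apoptotic gene, stood at 15.9 FPKM in DP cells, 28.8 in nasal and 17.0 in blood neutrophils. Ifi44 stood at 0.90 FPKM in DP cells, 1.26 in nasal and 0.02 in blood neutrophils, the blood value resting on about 3.6 fragments. All 4 lay within 2-fold between DP and nasal neutrophils.

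**Figure D4:**
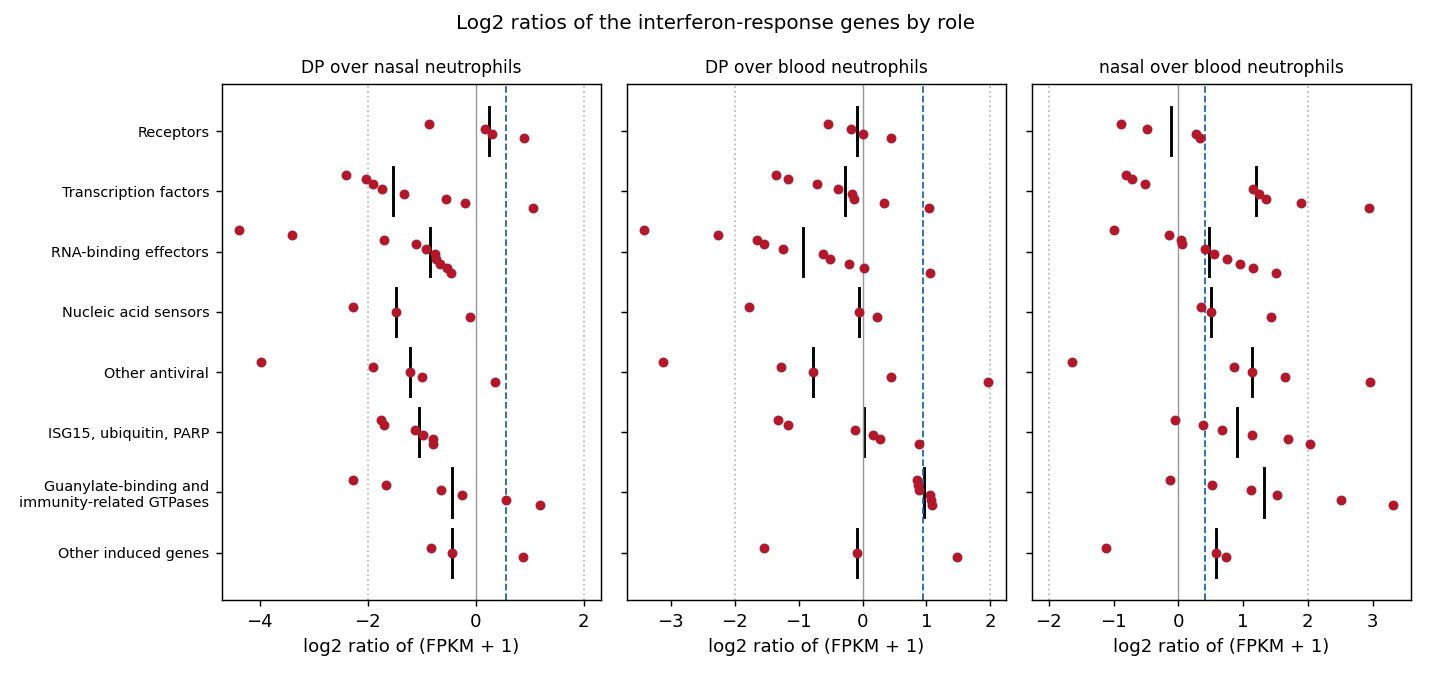
Log2 ratios of (FPKM + 1) for the 45 genes tested, by role, in each comparison. Each point is a gene, the black bar is the median of a role, the dashed line is the median of all genes tested and dotted lines mark 4-fold; receptors centre at 0.25 and transcription factors at -1.53 for DP over nasal neutrophils.

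Other genes of the pathway, from lists of induced and signalling genes outside the 49, are given by the interferon type best known to induce them. Of 54 other genes known to be induced by type I interferon, 0 lay 4-fold or more above and 8 lay 4-fold or more below in DP relative to nasal neutrophils, with a median log2 ratio of -1.05, where 8.42% of all genes lay above and 3.62% below. For nasal over blood neutrophils 9 of the 54 lay above and 2 below with a median of 0.35, near the 13.1%, 3.23% and 0.41 of all genes. For DP over blood neutrophils 4 lay above and 7 below with a median of -0.52, where 24% of all genes lay above, 3.57% below and the median was 0.95. Ifitm6, of a family of antiviral membrane proteins, stood at 100.7 FPKM in DP cells, 1100.8 in nasal and 852.3 in blood neutrophils. Slfn4, a Schlafen gene of myeloid cells, stood at 32.1 FPKM in DP cells, 377.0 in nasal and 294.5 in blood neutrophils. Parp10 stood at 4.04 FPKM in DP cells, 45.9 in nasal and 10.6 in blood neutrophils and Slfn3 at 3.53 FPKM in DP cells, 29.0 in nasal and 22.7 in blood neutrophils. These 4 had the largest log2 ratios in size of that list for DP over nasal neutrophils where the mean reached 5 FPKM, and all were lowest in DP.

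Of 25 genes known mainly as IFN-gamma targets, 1 lay 4-fold or more above and 1 that far below in DP relative to nasal neutrophils. Among all genes tested 8.42% lay above and 3.62% below, so these counts were near the background. The median log2 ratio of 0.45 stood beside 0.57 for all genes tested. For nasal over blood neutrophils 6 lay 4-fold or more above and 0 below, with a median of 1.05, where 13.1% of all genes were that far above and the median of all genes was 0.41. For DP over blood neutrophils 6 of 25 lay above and 0 below with a median of 0.84, where 24% of all genes lay above and the median was 0.95, so this list stood near the background. Tgtp2, an immunity-related GTPase, stood at 81.3 FPKM in DP cells, 19.2 in nasal and 2.06 in blood neutrophils. The immunoproteasome subunit gene Psmb10 stood at 140.1 FPKM in DP cells, 35.6 in nasal and 8.89 in blood neutrophils, and Gbp7 at 48.5 FPKM in DP cells, 14.4 in nasal and 28.9 in blood neutrophils. The chemokine gene Cxcl10 went the other way, at 29.5 FPKM in DP cells, 411.0 in nasal and 2.85 in blood neutrophils. Whether the IFN-gamma and type I lists differ was not tested. Of 14 signalling genes outside the 49, 0 lay 4-fold apart between DP and nasal neutrophils, against 8.42% of all genes higher and 3.62% lower. In nasal neutrophils 4 were that far above blood, against 13.1% of all genes, and in DP 5 were, against 24%. The feedback inhibitor genes Socs1 and Socs3 were highest in nasal neutrophils. Socs1 stood at 18.4 FPKM in DP cells, 59.7 in nasal and 1.91 in blood neutrophils, and Socs3 at 397.8 FPKM in DP cells, 1018.2 in nasal and 58.8 in blood neutrophils.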

How the data were processed

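Values are the gene-level FPKM that the authors deposited, 1 table per library. The file headers give sample codes and not the unit, which was taken from the Cufflinks-style gene column and the tools named. Tools named, per the submitters' processing notes, were Cufflinks 2.1.1, TopHat2 2.0.8 and Bowtie2 2.1.0, on build mm9, without stated settings. FPKM are estimates, so no count model was used, and 1 library per group allows no test.

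Values below 1e-06 FPKM were set to 0. Ratios are differences of log2(FPKM + 1), which understate the change of low genes, over genes at a mean of 1 FPKM or more. Fold values of single genes are plain FPKM ratios. Depth was estimated from steps between low values times transcript length (GENCODE M21, single transcripts over 1500 nt) and is approximate. Motifs were searched in RefSeq windows of GRCm38.p6; no mm9 coordinates were used, and gene neighbours come from that RefSeq assembly, which matched 47 of the 49 genes. Parp9, Parp14, Dhx58, Gbp6, Mx1, Mx2, Oas2, Rtp4, Usp18 and Zbp1 had no window.

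The 49 genes and all lists were chosen with earlier results of these data known. Named outside the 49 were the interferon genes with the highest values (Ifng, Ifne and Ifnb1), and Jak1, Jak2, Tyk2, Socs1 and Socs3. By size of ratio, up to 4 genes of each pathway list and comparison at a mean of 5 FPKM or more were picked, of which most are given. The markers C1qa, C1qb, C1qc and others listed at 0, and Emr1, Xcr1, Ly6c2, Siglech, Tcf4, Fcgr3 and Il1r2, were chosen after their values were seen. Of the genes that the rule names, 1 is not reported here. The other settings tried were pseudocounts of 0.1 and 5, no filter, a mean of 5 FPKM, a common sum of 1000000, centring, upper-quartile scaling, correction in 20 length bins, omission of genes at 0, and a 2-fold threshold. Counts and medians were checked on simulated data. Python 3.11.15, numpy 2.4.6, pandas 2.3.3 and matplotlib 3.10.9 were used.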

Additional observations from a re-analysis of the deposited data

How the results depend on the processing

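The median log2 ratio of the group stayed negative for DP over nasal neutrophils and for DP over blood neutrophils, and positive for nasal over blood neutrophils, in all alternatives run. Centring on the median of all genes was a shift of 0.57 for DP over nasal, 0.41 for nasal over blood and 0.95 for DP over blood neutrophils. It gave 15 genes at least 4-fold lower for DP over nasal, 1 for nasal over blood and 13 for DP over blood neutrophils. Of all genes, 7.21%, 5.68% and 9.06% were that far lower in the same order. The centred median of the group was -1.09 for DP over blood neutrophils. Upper-quartile scaling gave 15 lower with a median of -1.50 for DP over nasal neutrophils, beside 6.85% of all genes lower. For DP over blood neutrophils it gave 12 lower with a median of -0.95, beside 7.35% of all genes lower. Without that scaling 3.62% and 3.57% of all genes were lower, so the scaling raised the background too. A pseudocount of 5 FPKM gave 4 lower for DP over nasal neutrophils, beside 1.89% of all genes. It gave 3 higher for nasal over blood neutrophils, beside 4.38% of all genes. For DP over blood neutrophils, 1 gene was at least 4-fold higher with a pseudocount of 0.1 and with a common sum of 1000000. Of all genes, 35.9% and 29.9% were that far higher in these settings. At 2-fold, 2 were higher and 19 lower for DP over nasal, 18 and 3 for nasal over blood, and 7 and 13 for DP over blood neutrophils. The shares of all genes at 2-fold are given with each comparison above. The ISRE core followed by CT was in 17.4% of the group's windows, against 0.271% of all windows. The sign of the ratio turned in some alternative for 5 of 45 genes in DP over nasal, 7 in nasal over blood and 14 in DP over blood neutrophils, none of them beyond 4-fold. No paired analysis was possible because each group has 1 library, and for that reason no library could be left out. The cause of these shifts was not tested. Few fragments limit the low members most: Mx2 and Ifi44 in blood neutrophils rest on about 1 and 3.6, in a library of roughly 53600000.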

Other observations

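Genes of the sensing pathways that lead to interferon production were also read. Of 12 tested, 0 were at least 4-fold higher or lower in DP than in nasal neutrophils. Among all genes tested 8.42% were higher and 3.62% lower, so 0 of 12 is near those shares. For nasal over blood neutrophils 1 was higher and 1 lower, against 13.1% and 3.23% of all genes. For DP over blood neutrophils 2 were higher and 1 lower, against 24% and 3.57%. Ikbke, which encodes a kinase that activates Irf3 and Irf7, stood at 53.4 FPKM in DP cells, 125.8 in nasal and 0.36 in blood neutrophils. Its relative Tbk1 stood at 13.2 FPKM in DP cells, 30.7 in nasal and 13.1 in blood neutrophils, so the related kinases differed in how far the nose lay above blood. Tmem173, which encodes the DNA-sensing adaptor STING, stood at 13.5 FPKM in DP cells, 8.84 in nasal and 1.97 in blood neutrophils. Both Toll-like receptors of this list that the naming rule picked were highest in blood. Tlr8, a sensor of RNA, stood at 1.14 FPKM in DP cells, 1.83 in nasal and 23.3 in blood neutrophils. Tlr4, the LPS receptor, stood at 11.3 FPKM in DP cells, 35.9 in nasal and 47.1 in blood neutrophils.

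Some induced genes outside the 49 were highest in blood neutrophils, like Rtp4 and Oasl2. Irgm2, a relative of Irgm1 and Igtp, stood at 32.2 FPKM in DP cells, 20.8 in nasal and 79.9 in blood neutrophils. Mov10, an RNA helicase, stood at 1.43 FPKM in DP cells, 14.8 in nasal and 27.2 in blood neutrophils. Others stood highest in nasal neutrophils and lowest in blood. Lgals3bp stood at 14.2 FPKM in DP cells, 33.0 in nasal and 0.81 in blood neutrophils, Ms4a6c at 21.2 FPKM in DP cells, 59.0 in nasal and 2.55 in blood neutrophils, and Ifi205 at 4.75 FPKM in DP cells, 21.6 in nasal and 1.27 in blood neutrophils. Ms4a6c is also known in monocytes and macrophages, and the part of such cells in its values was not tested.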
